A study of Homo sapiens with 2 samples.

Results

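The genes described here are the 65 protein-coding genes that start between positions 18822203 and 43684199 of chromosome 18 in the human genome build hg19, in bands 18q11 to 18q12 of the long arm. They were chosen by position, out of 27685 genes in the deposited table and 268 protein-coding genes of this chromosome, and a gene counted as protein-coding when it had a RefSeq transcript with an NM_ identifier. The interval itself had been selected on measured values, because neighbouring genes there were higher in one cell line than in the other, so the direction of the difference is a description and was given no test. LAMA3, CDH2 and the desmoglein (DSG) and desmocollin (DSC) genes, 9 in all, lie in the same interval and were left out by the rule.

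The data came from RNA-seq of 2 established human cell lines, H2087 and H596. Both are labelled as lung adenocarcinoma, both were untreated and grown in RPMI medium with fetal bovine serum, and no genetic modification is given for either. The study used H2087 to find highly expressed genes, and its text does not describe H596. Each line was represented by 1 library, so no value below has a replicate check, no test between the lines was possible, and every interval covers counting error only.

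The genes of this interval do unrelated work, and they are neighbours on the DNA rather than members of 1 pathway. GATA6, the gene of the interval best studied in epithelial cancers, encodes a zinc finger transcription factor that directs the formation of endoderm and of the airway and alveolar epithelium. Around it lie genes for chromatin and transcription factors, for the kinases and tethers of membrane traffic, for enzymes that build sugar chains on proteins, and for cytoskeletal adaptors, as well as several genes used mainly in brain, liver or kidney.

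Library depth, the total of the estimated counts, was 46961500 for H2087 and 55387847 for H596, a ratio of 1.18. Levels are given as FPKM (fragments per kilobase of transcript, scaled to the size of the library), which can be compared between genes, and differences as log2(FPKM + 1) of H596 minus that of H2087, a scale that understates the change of low genes. The labelled cell type was checked against listed markers. The epithelial markers EPCAM, CDH1, KRT8, KRT18 and KRT19 were present in both libraries. NKX2-1, the lineage factor of lung adenocarcinoma, had 110 FPKM in H2087 and 0.508 FPKM in H596, and the protease gene NAPSA had 21.9 in H2087 and 0.0645 in H596. The squamous markers TP63, KRT5, KRT6A, KRT14 and DSG3 summed to an FPKM of 1.66 in H2087, with KRT5, KRT14 and DSG3 at 0, and to 250.2 in H596. KRT7, also on the adenocarcinoma list, was high in both, with 791 FPKM in H2087 and 608 FPKM in H596, and the surfactant genes SFTPB and SFTPC were near 0 in both. The H596 library thus had NKX2-1 and NAPSA near 0 and carried squamous markers, and their part in the results below was not tested. The neuroendocrine markers CHGA and INSM1 and the leukocyte marker PTPRC were at 0 in both libraries, whereas the stromal markers were split, DCN with 0 FPKM in H2087 and 9.77 FPKM in H596, and COL1A1 with 3.89 FPKM in H2087 and 0.916 FPKM in H596. CD68, a lysosomal gene that epithelial cells also use, had 128 FPKM in H2087 and 25.6 FPKM in H596, and the 3 endothelial markers summed to under 1 FPKM in each library. Since RNA was taken from whole cultures, a change in the share of cells that use a gene and a change in its level per cell cannot be told apart.

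Most genes of the interval that could be compared were higher in H596. Of the 65 genes, 43 had a mean FPKM of at least 1 over both libraries and were compared, and 27 of these (62.8%) were at least 2-fold higher in H596 on the log2(FPKM + 1) scale, against a background of 18.2% of all 13048 genes compared. At least 2-fold lower were 2 of the 43 (4.65%), DTNA and FHOD3, against a background of 14.2%. The other 14 lay within 2-fold, 8 of them above 0 and 6 below. Because the interval was chosen on this difference, nothing further is read from these counts. The filter also favoured large differences: 6 of the 43 genes were under an FPKM of 1 in H2087 and passed through H596 alone, and 2 passed through H2087 alone.

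The median difference of the 43 genes was 1.20, with quartiles of 0.52 and 1.77, and the median of all genes compared was 0.12. As a plain ratio of FPKM, the median was 2.48 over the 41 genes with counts in both libraries, and 1.10 over all genes with counts in both. The median FPKM of the 43 genes was 5.27 in H2087 and 13.6 in H596, whereas that of all genes compared was 9.23 and 10.5. The median of the interval was thus below that of all genes compared in H2087 and above it in H596. This follows in large part from the choice of the interval and is a description. In H2087, 8 of the 65 genes reached an FPKM of 10, and in H596, 28 did. Together the 65 genes held 0.127% of the estimated counts in H2087 and 0.284% in H596. By counting error alone, the 95% interval of the fold lay above 1 for 35 genes, below 1 for 7, and held 1 for 1 gene, C18orf8. The 35 include CHST9 and SETBP1, which had 0 counts in H2087 and so no interval. The same count over all genes compared was not made, so this one is not read as particular to the interval. Such intervals are narrow for genes with many counts, and NPC1, at a fold of 0.881, is among the 7.

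**Figure D1:**
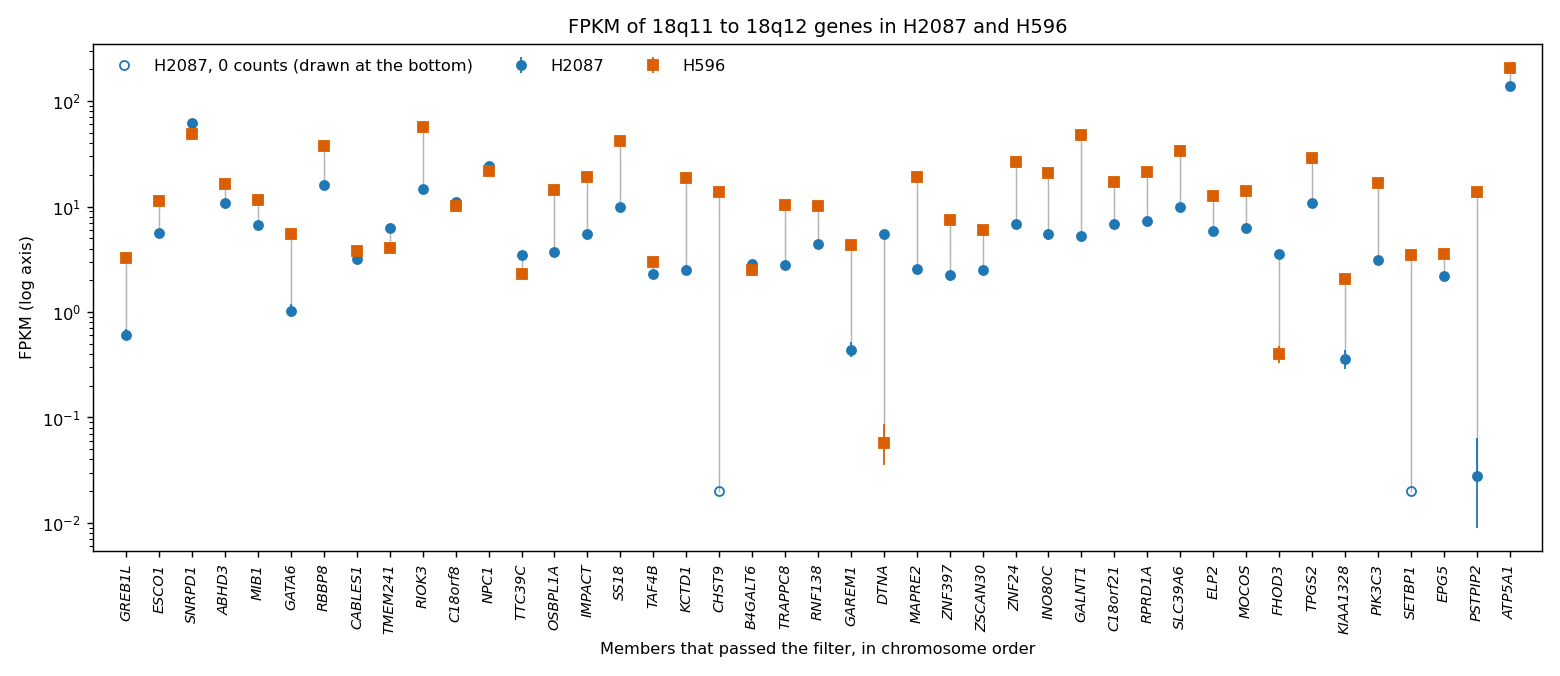
FPKM (log axis) of the 43 genes of the interval with a mean FPKM of at least 1, in chromosome order, with H2087 as circles, H596 as squares and exact 95% Poisson intervals of the counts as bars, most of them hidden by the symbols. The squares lie above the circles for 35 genes and below them for 8, and open circles mark CHST9 and SETBP1, which had 0 counts in H2087 and are drawn at an arbitrary low position because a log axis has no 0.

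GATA6 lies on the plus strand at chr18:19749398-19782491. It had 187 counts and an FPKM of 1.03 (95% interval, 0.889 to 1.19) in H2087, and 1185 counts and an FPKM of 5.53 (5.22 to 5.85) in H596. This is a 5.36-fold ratio (4.59 to 6.28) and a difference of 1.68 on the log2(FPKM + 1) scale. GATA6 was therefore present at a low level in both lines, below the median level of all genes compared in each. Among the other GATA factors, GATA2, a blood and endothelial factor, had the highest FPKM of the family in both libraries, at 11.3 in H2087 and 14.6 in H596. GATA1 and GATA5 had 0 counts in both libraries. GATA3 had 8 counts and GATA4 had 50 counts in H2087, and both had 0 in H596.

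Genes linked to GATA6 by textbook knowledge did not share 1 direction. Of 5 listed partners, 4 were compared, 1 was at least 2-fold higher in H596 and 1 at least 2-fold lower. The higher one was KLF5, an epithelial zinc finger factor, with 15.8 FPKM in H2087 and 113 FPKM in H596, and the lower one was NKX2-1. Of 7 listed endoderm factors, FOXA1 and FOXA2 were compared. FOXA1, which opens chromatin for other factors, had 32.2 FPKM in H2087 and 44.5 FPKM in H596, whereas its relative FOXA2 had 30.5 in H2087 and 0.116 in H596. SOX17 was at 0 in both. Of 6 listed targets of GATA6, the Wnt ligand gene WNT7B had 17.8 FPKM in H2087 and 93.5 FPKM in H596, and the ligand gene BMP4 had 2.42 in H2087 and 16.2 in H596. SFTPA1, which encodes a surfactant protein, had 82.9 in H2087 and 0 counts in H596. These lists hold other lineage genes of the lung that also differ between the libraries, as NKX2-1 shows, and the part of GATA6 in them was not tested.

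The genes are described by role, a grouping made after the values were seen. Of 17 genes for transcription and chromatin, 13 were compared, and all 13 were above 0, with a median difference of 1.42. At least 2-fold higher in H596 were 10 of the 13, beside 27 of 43 in the interval and 18.2% of all genes compared. SS18, a subunit of the BAF chromatin remodelling complex known from its fusion in synovial sarcoma, had 9.92 FPKM in H2087 and 41.5 FPKM in H596, a 4.18-fold ratio (95% interval, 3.96 to 4.42). ZNF24, which encodes a zinc finger repressor, had 6.90 FPKM in H2087 and 26.3 FPKM in H596. INO80C, which encodes a subunit of the INO80 nucleosome remodeller, had 5.46 in H2087 and 20.7 in H596.

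On the log2(FPKM + 1) scale the largest difference of this group was that of KCTD1, which encodes a repressor of AP-2 transcription factors. KCTD1 had 2.51 FPKM in H2087 and 18.6 FPKM in H596, a 7.40-fold ratio (6.64 to 8.27). SETBP1, which encodes a DNA-binding protein that binds the oncoprotein SET, had 0 counts in H2087 and 1496 in H596, where its FPKM was 3.46. Set against the limit that 3 counts would give in H2087, this is at least 423-fold higher in H596. RBBP8, whose product CtIP starts the resection of broken DNA ends, had 16.1 FPKM in H2087 and 37.6 FPKM in H596. RPRD1A, which binds the tail of RNA polymerase II, had 7.26 in H2087 and 21.2 in H596. The smallest differences were those of ESCO1, an acetyltransferase of cohesin, with 5.66 FPKM in H2087 and 11.3 FPKM in H596, and of TAF4B, a TFIID subunit known from germ cells, with 2.28 in H2087 and 2.97 in H596. The zinc finger genes ZNF397 and ZSCAN30, which overlap each other, differed by 1.38 and 0.99. GREB1L, the first gene of the interval and one needed for kidney formation, had 0.608 FPKM in H2087 and 3.25 FPKM in H596.

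Enzymes of sugar chains held 2 of the 3 largest differences of the interval on the log2(FPKM + 1) scale. By the ratio of FPKM, PSTPIP2, SETBP1 and GAREM1 came before GALNT1. GALNT1, which adds the first sugar of mucin-type chains, lies at chr18:33234533-33291798 and had 970 counts in H2087 and 10286 in H596. Its FPKM was 5.27 (95% interval, 4.95 to 5.61) in H2087 and 47.2 (46.3 to 48.1) in H596, an 8.96-fold ratio. CHST9, at chr18:24495595-24765302, encodes a sulfotransferase of terminal N-acetylgalactosamine. It had 0 counts in H2087 and 1747 in H596, where its FPKM was 13.7 (13.0 to 14.3), at least 494-fold higher by the limit of 3 counts. B4GALT6, a lactosylceramide synthase, moved little and the other way, with 2.85 FPKM in H2087 and 2.51 FPKM in H596. SIGLEC15, a sialic acid receptor of osteoclasts, had 19 counts in H2087 and 21 in H596 and was not compared.

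The genes of membrane traffic, lipids and autophagy were mixed. Of 9, 7 were compared, and their median difference was 0.54. At least 2-fold higher in H596 were 3 of the 7, beside 18.2% of all genes compared. PIK3C3, the lipid kinase VPS34 that starts autophagosomes, had 3.09 FPKM in H2087 and 16.7 FPKM in H596, a 5.39-fold ratio (4.88 to 5.96). OSBPL1A, a sterol sensor of late endosomes, had 3.70 in H2087 and 14.3 in H596. TRAPPC8, a subunit of a tethering complex of the Golgi and of autophagy, had 2.79 in H2087 and 10.3 in H596. By contrast, NPC1, the cholesterol transporter of the lysosome, had 24.4 FPKM in H2087 and 21.5 FPKM in H596. Its neighbour C18orf8, which overlaps it and acts in endosome maturation, had 1161 counts in H2087 and 1233 in H596, a fold of 0.923 towards H596. EPG5, a tether for the fusion of autophagosomes with lysosomes, had 2.20 in H2087 and 3.51 in H596, and ABHD3, a phospholipase, had 10.9 and 16.3.

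Cytoskeletal genes held differences in both directions. Of 6, 5 were compared, with 3 at least 2-fold higher in H596 and 2 at least 2-fold lower. Over all genes compared the shares were 18.2% and 14.2%. PSTPIP2 passed the filter through H596 alone, and DTNA and FHOD3 through H2087 alone. PSTPIP2, at chr18:43563502-43652250, encodes an F-BAR protein that bundles actin at membranes. It had 5 counts and an FPKM of 0.0276 in H2087, and 2334 counts and an FPKM of 13.6 in H596, a 493-fold ratio (95% interval, 211 to 1519). MAPRE2, a microtubule end-binding protein, had 2.58 FPKM in H2087 and 19.1 FPKM in H596, a 7.40-fold ratio (6.76 to 8.11). TPGS2, a subunit of the tubulin polyglutamylase complex, had 10.7 in H2087 and 28.9 in H596.

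DTNA and FHOD3 were the genes of the interval that were at least 2-fold lower in H596. DTNA, at chr18:32073254-32471808, encodes alpha-dystrobrevin, which joins the dystrophin complex at the membrane. It had 1202 counts and an FPKM of 5.50 in H2087, and 22 counts and an FPKM of 0.0568 in H596, so the FPKM was 97.0-fold higher in H2087. FHOD3, at chr18:33877659-34360183, encodes a formin that builds actin filaments in heart muscle. It had 866 counts and an FPKM of 3.52 in H2087, and 126 counts and an FPKM of 0.397 in H596, a ratio of 8.87 towards H2087. Both are long genes with neighbours that went the other way. MAPRE2, next to DTNA, was higher in H596 by 2.49 and TPGS2, which overlaps the end of FHOD3, by 1.35.

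The genes for RNA and translation included a pair of opposite cases. RIOK3, an atypical kinase of ribosome assembly, had 2552 counts in H2087 and 11831 in H596, and its FPKM was 14.6 in H2087 and 57.3 in H596, the second highest of the interval there. SNRPD1, a core protein of the spliceosome, had 62.5 FPKM in H2087 and 49.0 FPKM in H596, the second highest of the interval in H2087. IMPACT, an inhibitor of the GCN2 stress kinase, had 5.48 in H2087 and 18.9 in H596. ELP2, a subunit of the Elongator complex that modifies transfer RNA, had 5.81 in H2087 and 12.6 in H596.

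Among genes of ubiquitin and signalling, GAREM1, an adaptor of the EGF receptor pathway, had 149 counts in H2087 and 1716 in H596. Its FPKM was 0.438 in H2087 and 4.30 in H596, a 9.81-fold ratio (8.29 to 11.7). RNF138, a ubiquitin ligase of DNA repair, had 4.39 FPKM in H2087 and 10.1 FPKM in H596. MIB1, the ubiquitin ligase that activates Notch ligands, had 6.67 in H2087 and 11.5 in H596, and CABLES1, a linker of cyclin-dependent kinases, had 3.18 in H2087 and 3.81 in H596. Neither of the latter reached 2-fold.

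ATP5A1, the alpha subunit of the mitochondrial ATP synthase, was the most abundant gene of the interval in both libraries. Its FPKM was 139 in H2087 and 208 in H596, and it was the one gene of the interval above an FPKM of 100 in either. SLC39A6, a zinc importer first known from its estrogen response, had 9.90 in H2087 and 33.8 in H596. Without ATP5A1 and SNRPD1, the summed FPKM of the interval was 228 in H2087 and 619 in H596. The remaining compared genes were C18orf21, MOCOS and KIAA1328, with differences of 1.20, 1.05 and 1.17, and TMEM241 and TTC39C, with differences of -0.51 and -0.45.

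Of the 22 genes that were not compared, 13 had 0 counts in both libraries. Most of the 13 are known for use in another tissue. They were TTR, the thyroid hormone carrier of liver and choroid plexus, the urea transporter genes SLC14A1 and SLC14A2, the neuronal genes SYT4, NOL4 and RIT2, the meprin gene MEP1B, the histamine receptor gene HRH4, the testis proteasome gene PSMA8, and CTAGE1, ZNF521, KLHL14 and CCDC178. For each of these, a level under that of 3 counts was not detectable at this depth. The other 9 had counts in at least 1 library but a mean FPKM under 1. Values near 1 FPKM were those of ANKRD29, with 0.960 FPKM in H2087 and 1.04 FPKM in H596, of CABYR, with 0.993 in H2087 and 0.870 in H596, and of ZNF396, with 0.476 in H2087 and 1.03 in H596. AQP4, the water channel of astrocytes, had 0 counts in H2087 and 15 in H596, SLC25A52 had 0 and 7, and ASXL3 had 3 and 0. CABYR, RNF125, CELF4 and SIGLEC15 were all lower in H596, each by at most 0.20. Genes without counts thus stood among genes that were several-fold higher in H596.

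The sequence before the start of transcription differed between the genes that were compared and those that were not. For each gene, the 250 bases of hg19 before the deposited start of its highest transcript were read, which was possible for 65 of 65 genes of the interval and for 19175 genes in all. A GC box, GGGCGG on either strand, the core of sites bound by SP1, was found in 35 of the 43 compared genes (81.4%) and in 7 of the 22 others (31.8%). Over all 19175 genes the share was 53.1%, over those compared 65.1%, and over those not compared 33.6%. The letters TATAAA, the core of the TATA box, were found on either strand in 3 of the 43 genes (6.98%) and in 9 of the 22 others (40.9%). Their share was 8.76% over all genes, 5.09% over those compared and 14.7% over those not compared. The median GC content was 67.6% in the compared genes and 48.8% in the others, and the median number of CpG dinucleotides was 21 and 8.5. So the genes of the interval with a measurable level mostly began in CpG-rich sequence, as did all compared genes, with a median of 20. A GATA motif, AGATAA or TGATAA on either strand, was found in 5 of the 65 windows (7.69%) and in 11.6% of all. Among compared genes it was in 2 of the 43 of the interval (4.65%) and in 7.57% of all. Among those not compared it was in 3 of the 22 (13.6%) and in 18.1% of all. The motif was in 0 of the windows of the 10 genes that were highest in H596 relative to H2087 and not in that of GATA6. With a share of 7.57% over all compared genes, 10 windows are too few to read anything from a 0. A match of letters is a description and not a binding site, and no match says only that these letters are not in the window. For GALNT1 the deposited start lies inside the annotated gene, so its window need not be a promoter.

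Windows of 200 bases are printed for genes on which the comparison turns, read from hg19 in the direction of transcription, 5′ to 3′, with the GC box, the letters of the TATA box and the GATA motif in capitals on either strand, overlapping matches included. GATA6, CHST9 and PSTPIP2 were higher in H596, FHOD3 was lower, and SYT4 had 0 counts in both.
GATA6, chr18:19749198-19749397 (plus strand): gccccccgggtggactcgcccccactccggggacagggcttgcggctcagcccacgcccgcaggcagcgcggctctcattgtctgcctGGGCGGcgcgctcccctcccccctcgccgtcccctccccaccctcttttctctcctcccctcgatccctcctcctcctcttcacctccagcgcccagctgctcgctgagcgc
CHST9, chr18:24765303-24765502 (minus strand): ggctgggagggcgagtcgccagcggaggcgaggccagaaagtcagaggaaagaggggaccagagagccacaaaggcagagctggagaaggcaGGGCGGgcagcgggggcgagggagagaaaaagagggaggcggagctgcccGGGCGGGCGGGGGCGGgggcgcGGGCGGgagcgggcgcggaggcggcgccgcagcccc
PSTPIP2, chr18:43652251-43652450 (minus strand): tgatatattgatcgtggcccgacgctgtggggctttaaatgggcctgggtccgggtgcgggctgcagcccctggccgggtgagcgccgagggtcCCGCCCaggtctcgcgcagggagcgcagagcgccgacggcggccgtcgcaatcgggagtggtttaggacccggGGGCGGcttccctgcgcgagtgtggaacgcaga
FHOD3, chr18:33877459-33877658 (plus strand): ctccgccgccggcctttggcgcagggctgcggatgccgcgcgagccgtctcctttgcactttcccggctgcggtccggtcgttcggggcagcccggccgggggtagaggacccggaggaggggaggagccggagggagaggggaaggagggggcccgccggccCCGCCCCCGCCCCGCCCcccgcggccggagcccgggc
SYT4, chr18:40857616-40857815 (minus strand): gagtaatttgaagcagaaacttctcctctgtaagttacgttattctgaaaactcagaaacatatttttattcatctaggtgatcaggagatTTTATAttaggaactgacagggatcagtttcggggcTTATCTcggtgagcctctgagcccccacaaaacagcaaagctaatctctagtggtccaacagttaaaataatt
The window of CHST9 holds 5 GC boxes that partly overlap, although the gene had 0 counts in H2087, that of FHOD3 holds 3, that of PSTPIP2 2 and that of GATA6 1. The window of SYT4 holds 0 GC boxes, 1 TATAAA and 1 AGATAA, with a GC content of 38.5% against 73.5% for GATA6 and 80.5% for FHOD3. Among the 2 genes lower in H596, FHOD3 thus starts in GC-rich sequence. The 250-base window of DTNA, not printed, had a GC content of 43.6%, 2 CpG dinucleotides and no GC box. That window was read before NM_001198943, which held 48.5% of the FPKM of DTNA in H2087. Its start at 32397926 lies inside the deposited span of DTNA, so the window need not be a promoter. In the GATA6 window, 28 bases overlap an exon that GENCODE gives to the noncoding GATA6-AS1, whose annotation there reaches beyond the deposited position of that gene.

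Several genes of the interval start back to back with a neighbour. The closest pair was ZSCAN30 on the minus strand and the transcribed pseudogene ZNF271P on the plus strand, with 26 bases between their deposited starts, shown here because both members of the pair were higher in H596.
ZSCAN30 to ZNF271P, chr18:32870210-32870235 (plus strand): ccgtcacccggtgccccacccccgcc
ZSCAN30 differed by 0.99, and ZNF271P had 327 counts and 1.33 FPKM in H2087 and 2299 counts and 7.93 FPKM in H596, a difference of 1.94. SLC39A6 and ELP2, with 479 bases between their starts, were both higher in H596, by 1.68 and 1.0. TPGS2 and KIAA1328, whose first bases overlap by 100, differed by 1.35 and 1.17. At the far edge, ATP5A1 inside the interval and HAUS1 outside it, 98 bases apart, differed by 0.57 and 0.71. The pair of GATA6 and GATA6-AS1, 468 bases apart, was not alike in level: GATA6-AS1 had 5 counts in H2087 and 11 in H596. How reads of overlapping genes were divided is not stated, so the values of such genes are uncertain to that extent. Among them are FHOD3, TPGS2, KIAA1328, ZNF397, ZSCAN30, NPC1, C18orf8, MOCOS and LOC101927809.

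Noncoding genes of the interval, which the rule did not take, were mostly without counts. Of 43, 34 had 0 counts in both libraries. Of the 7 with more than 3 counts in at least 1 library, 6 had a higher FPKM in H596. The same count over all noncoding genes was not made, so the direction is not read as particular to the interval. Several of the 6 rest on few counts in H2087 and H596: GATA6-AS1 with 5 and 11, LOC101927571 with 5 and 33, TTC39C-AS1 with 0 and 7, and DSG1-AS1 with 0 and 15. Next to ZNF271P, the other one with a mean FPKM of at least 1 was LOC101927809, which overlaps the start of the molybdenum cofactor sulfurase gene MOCOS, with 52 counts and 1.82 FPKM in H2087 and 100 counts and 2.95 FPKM in H596. The exception was MIR924HG, the host of a microRNA, with 73 counts and 0.709 FPKM in H2087 and 74 counts and 0.603 FPKM in H596.

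The difference did not stop at the edges of the interval. The genes next to it were ROCK1 before the first edge, a kinase gene of the actin cytoskeleton with 9.43 FPKM in H2087 and 17.7 FPKM in H596, and GREB1L just inside. At the other edge, ATP5A1 was the last gene inside and HAUS1, which encodes a subunit of the augmin complex of the spindle, was the first outside, with 9.65 FPKM in H2087 and 16.4 FPKM in H596. Of the 5 genes next before the interval, ROCK1 alone was compared, and ANKRD30B, POTEC and MC2R had 0 counts, whereas ZNF519 had 0.914 FPKM in H2087 and 0.885 FPKM in H596. Of the 5 next after it, HAUS1 and C18orf25 were compared, and C18orf25 had 2.82 FPKM in H2087 and 8.19 FPKM in H596. RNF165 lay under 1 FPKM in both libraries, LOXHD1 had 0 counts, and ST8SIA5 had 6 counts in H2087 and 0 in H596. Of the genes left out inside the interval, 5 of 9 were compared and 4 were at least 2-fold higher in H596. They included DSG2, a desmosomal cadherin, with 22.9 FPKM in H2087 and 167 FPKM in H596, and DSG3, with 0 counts in H2087 and 33.9 FPKM in H596.

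Outside the interval, chromosome 18 was also higher in H596. Of the 120 compared genes outside, 98 (81.7%) were above 0, and in the interval 35 of 43 (81.4%) were. The share was 55.2% over all genes compared and 80.1% on chromosome X, so a share of this size was not particular to chromosome 18. The size was smaller outside: the median difference was 0.68 over 43 genes before the interval and 0.72 over 77 genes after it, and 42 of the 120 (35.0%) were at least 2-fold higher. The medians of the interval and of the rest of the chromosome were 0.48 apart, and this gap follows from the choice of the interval. In steps of 5 Mb from the start of the chromosome, with the left-out genes included, the medians were 0.65, 0.69, 0.78 and 0.84 up to 20 Mb. They were 1.39 from 20 to 25 Mb over 14 genes, 1.73 from 25 to 30 Mb over 8 genes and 1.35 from 30 to 35 Mb over 15 genes. Between 35 and 40 Mb, PIK3C3 alone was compared. From 40 to 60 Mb the medians lay between 0.69 and 0.91. A second stretch with a median of 1.41 lay from 60 to 65 Mb, so the interval was not the one high stretch of the chromosome. Of 13 genes there, 10 were at least 2-fold higher and 2 at least 2-fold lower, beside 18.2% and 14.2% of all genes compared. From 65 Mb to the end the medians were 0.59, 0.65 and 0.30.

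**Figure D2:**
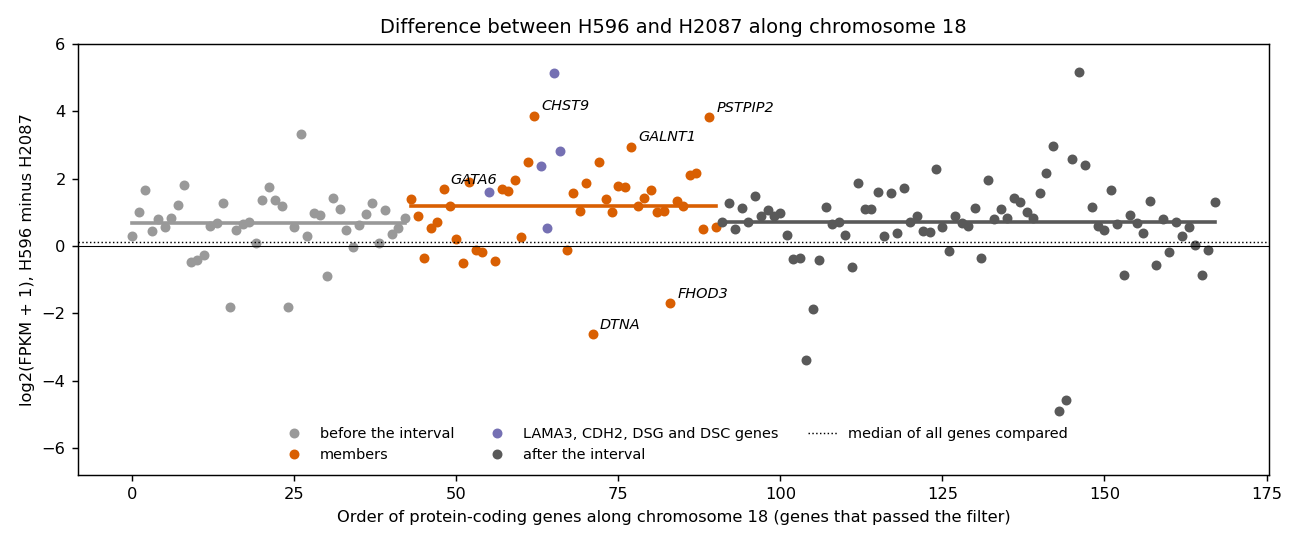
Difference of log2(FPKM + 1), H596 minus H2087, for the 168 protein-coding genes of chromosome 18 with a mean FPKM of at least 1, in order along the chromosome, each point being 1 gene. Thick lines are the medians of the genes before the interval (0.68), in it (1.20) and after it (0.72), all above the dotted line at the median of all genes compared (0.12), and CHST9 and PSTPIP2 stand highest and DTNA and FHOD3 lowest among the genes of the interval.

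Taken whole, chromosome 18 had the highest median difference of 23 chromosomes, 0.86 over 168 genes. Chromosomes X and 20 followed with 0.69 and 0.57, and the lowest medians were those of chromosomes 5, 12 and 10, at -0.58, -0.48 and -0.40. The part of chromosome 18 outside the interval, with a median of 0.72, was still above every other chromosome, with chromosome X close behind.

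**Figure D3:**
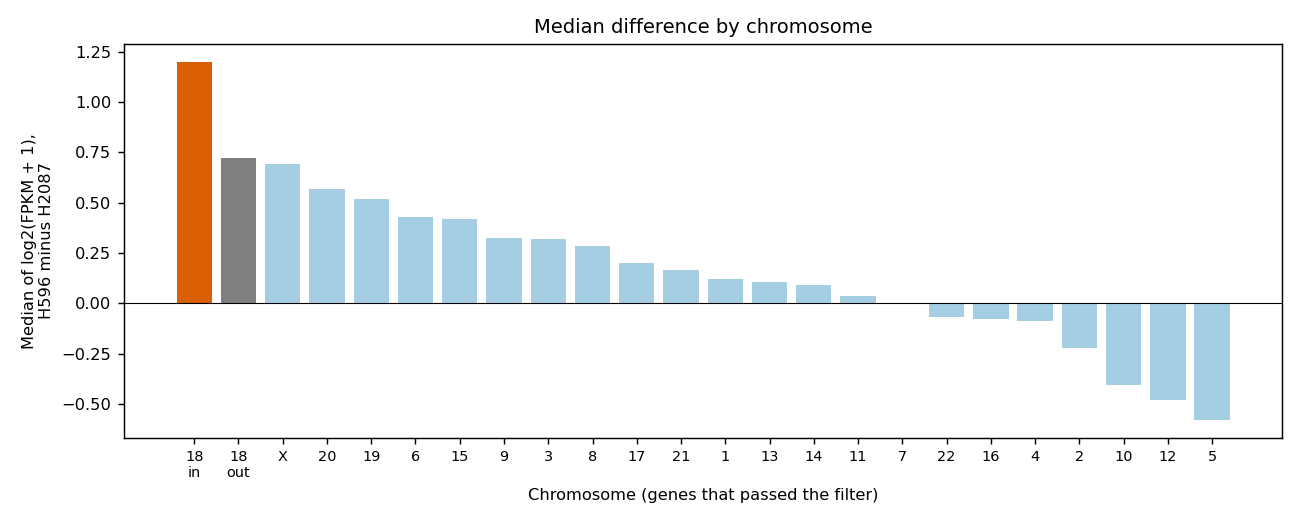
Median difference of log2(FPKM + 1), H596 minus H2087, over the compared protein-coding genes of each chromosome, with chromosome 18 drawn as the 43 genes of the interval (18 in) and the 120 genes outside it (18 out). The bar of the interval reaches 1.20, that of the rest of chromosome 18 reaches 0.72, and the other chromosomes range from 0.69 for X to -0.58 for chromosome 5.

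Many proteins of the interval work in complexes or families whose other genes lie elsewhere, and these were listed for 23 genes. The lists hold 97 genes, with 0 on chromosome 18, and 96 of them were compared. The partner genes had a median difference of 0.20, and 11 (11.5%) were at least 2-fold higher in H596, beside the background of 18.2%, whereas of the 22 compared genes of the interval with a list 14 were, with a median of 1.3. Each gene of the interval was above the median of its own partners in 18 of 22 cases and above every partner in 13. The interval was chosen for being higher in H596 and the partners were not, so this gap follows in large part from the choice, and the values below are given side by side as a description.

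Among the chromatin complexes, SS18 differed by 1.96, while 7 other subunits of the BAF complex, SMARCA4 and ARID1A among them, ranged from -0.60 to 0.57 with a median of 0.03. INO80C differed by 1.75, while 8 other genes of the INO80 complex ranged from -0.91 to 0.51. RBBP8 differed by 1.17, while MRE11, RAD50, NBN and BRCA1, which act with it at broken DNA ends, ranged from -0.39 to 0.28. The partner genes listed for these 3 stayed within 2-fold. By contrast, ESCO1 at 0.88 was below the cohesin gene STAG1 at 1.02, and TAF4B at 0.27 was below TAF1 at 1.17, another TFIID subunit gene.

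Among complexes of traffic and energy, PIK3C3 differed by 2.11, while BECN1, PIK3R4, ATG14 and UVRAG, which form its complexes, ranged from -0.22 to 0.67. TRAPPC8 differed by 1.57, while 8 other TRAPP genes ranged from -0.72 to 1.10 with a median of -0.02. ATP5A1 differed by 0.57, while 5 other ATP synthase genes were all lower in H596, from -1.46 to -0.16. The alpha subunit of the synthase was therefore higher in H596 and the beta subunit gene ATP5B lower, with 741 FPKM in H2087 and 297 FPKM in H596.

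Within families, GALNT1 differed by 2.94, while its relatives GALNT2 and GALNT3 differed by 0.92 and 0.21. MAPRE2 differed by 2.49, while MAPRE1 and MAPRE3 differed by 0.26 and -1.23. RIOK3 differed by 1.90, while RIOK1 and RIOK2 differed by 0.68 and -1.01. SLC39A6, IMPACT, ELP2 and RPRD1A were also above every listed partner.

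Not every gene of the interval was above its partners. MIB1, NPC1, B4GALT6 and EPG5 were not above the median of their partners. For B4GALT6, at -0.13, the relatives B4GALT1 and B4GALT5 were higher, at 0.23 and 1.52. For EPG5, at 0.50, the 4 partners had a median of 0.97. SNRPD1 was lower in H596, by -0.34, and the 6 other Sm core genes had a median of -0.48. OSBPL1A and RNF138, like ESCO1 and TAF4B, were above the median of their partners but below at least 1 of them, as OSBPL1A at 1.70 was below OSBPL2 at 1.75. PSMA8, the testis form of a proteasome subunit, had 0 counts, while the 7 alpha subunit genes used in all cells had a median difference of 0.05.

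**Figure D4:**
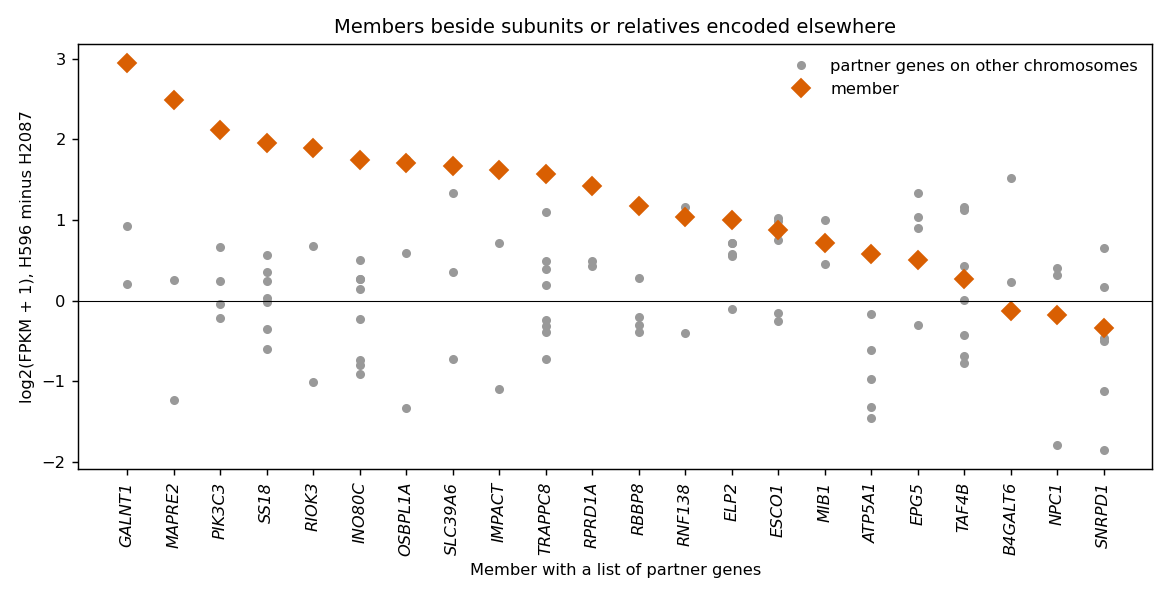
Difference of log2(FPKM + 1), H596 minus H2087, for the 22 compared genes of the interval that have a list of partners (diamonds), ordered by size, and for the subunits or relatives of each encoded on other chromosomes (grey points). The diamonds fall from 2.94 for GALNT1 to -0.34 for SNRPD1, and 13 of them lie above all their grey points.

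Isoform use was not part of the rule. Of the 30 compared genes with several transcripts and counts in both libraries, 22 had the same highest transcript in both and 8 did not. The same count over all genes compared was not made, so 8 of 30 is not read as particular to the interval. KCTD1 was among the 8. Its transcript NM_001142730 held 72.9% of the gene's FPKM in H2087 and 32.7% in H596, while NM_001136205 held 19.9% in H2087 and 62.6% in H596. In FHOD3, NM_001281739 held 56.8% in H2087 and 0% in H596, where NM_001281740 held 75.5% of a low total. The ATP synthase gene ATP5A1 changed its order narrowly, with NM_004046 at 51.8% in H2087 and NM_001001937 at 56.7% in H596. The other 5 were TMEM241, TTC39C, GAREM1, DTNA and KIAA1328. GAREM1 was almost evenly split in H596, with 859 counts for NM_001242409 and 857 for NM_022751. DTNA had 22 counts in H596 and KIAA1328 had 94 in H2087, so their order there rests on few counts. Among the 22, ELP2 kept NM_018255 as its highest of 14 transcripts, with 21.5% in H2087 and 68.0% in H596. MAPRE2 kept NM_014268, with 75.6% in H2087 and 97.7% in H596. GATA6 and GALNT1 each have 1 listed transcript. The division of reads among transcripts that share exons is an estimate whose error is not covered by the intervals.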

How the data were processed

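RNA was extracted with TRIzol and libraries were made with a stranded mRNA kit. According to the submitters' processing notes, bcl2fastq 1.8.4, Trimmomatic, HISAT2 2.0.5, StringTie 1.3.3b and build hg19 were used. The authors deposited estimated counts per gene and per transcript, all of them whole. How these were derived, the strand setting and the handling of read pairs are not given in the sources used here. The authors also deposited FPKM, normalised for length and for library size by StringTie, and for each gene of the interval the FPKM equals the sum over its transcripts.

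Columns were matched to the libraries by cell line name. Genes whose mean FPKM reached 1 were compared by log2(FPKM + 1), with 2-fold as the limit for a call. Intervals are exact 95% Poisson intervals of the counts, or exact binomial (Clopper-Pearson) intervals for folds, carried over to FPKM. Reads from amplified libraries are not independent molecules, so the intervals cover counting error only. A count of 0 was read as under 3 counts.

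The genes of the interval and all lists were chosen with earlier results of these data known. Values are given for GATA6, the 10 genes with the largest differences, those at least 2-fold lower, the 5 highest in each library, genes with partner lists, genes at 0 in 1 library, and 5 genes next to each edge. Other genes were named after their values were seen.

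Sequences were read from GRCh37, with strands from GENCODE release 44 lifted to it or from RefSeq. Alternatives were a pseudocount of 0.1, no filter or a mean FPKM of at least 10, TPM, TMM scaling (edgeR 4.0.16, R 4.3.3), centring, single transcripts and inclusion of the left-out genes. Python 3.11.15, pandas 2.3.3 and scipy 1.17.1 were used. Some listed genes are not reported here.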

Additional observations from a re-analysis of the deposited data

How the results depend on the processing

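Of 50 alternatives computed, 29 counted as the same, 21 as moved and 0 as reversed. A count of genes has no sign and could not reverse, so this label was open to the medians and to GATA6 only. The direction inside the interval was set by its choice, so nothing is read from the lack of a reversal there. A count was the same if it changed by at most 1.5 times. A median was the same if it moved by less than the typical counting error of 1 gene of its group. That limit is not the error of a median. For GATA6 the limit was its own counting error. No paired analysis was possible because H2087 and H596 were sequenced as 1 library each, which also left none to take out.

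At a mean FPKM of at least 10, fewer genes were examined, and 19 genes of the interval were compared. Of these, 14 (73.7%) were at least 2-fold higher in H596, beside 15.6% of all genes compared at that setting, and 0 were lower. The median difference of the 19 genes was 1.42, and that of the partners 0.11. Under the other alternatives, 24 to 31 genes were higher. These were 41.5% to 67.4% of the genes of the interval compared, beside 9.19% to 24.6% of all genes compared. With a pseudocount of 0.1, the median of the interval was 1.42, that after it 0.93 and the difference of GATA6 2.31. Without a filter, the medians were 0.50 in the interval, 0.29 before it and 0.33 after it, because genes with 0 counts entered. With TPM they were 1.57, 0.88 and 1.03, with GATA6 at 2.17 and the partners at 0.39. With TMM scaling the interval had 1.07, the genes before it 0.59 and the partners 0.083. With centring, the genes before it had 0.57 and the partners 0.084. With the left-out genes the median of the interval was 1.37.

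TPM moved the median of all genes by 0.18 and TMM scaling by -0.11, so the gap between the interval and all genes, 1.08 as reported, was 1.27 with TPM and 1.07 with TMM scaling. The share of 2-fold calls over all genes that were higher in H596 was 56.2% as reported, 65.6% with TPM, 49.2% with TMM scaling and 49.1% with centring. In the interval it was 93.1%, 93.5%, 92.3% and 92.3%. With 1 library per line, replicate error is unknown, and depth limits the genes with few counts.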
